A study of Mus musculus with 8 samples.

Results

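The cytosolic HSP70 and HSP90 chaperone machinery was followed as 10 genes, taken by symbol from the gene count table: *Hspa1a*, *Hspa1b*, *Hspa8*, *Hspa4*, *Hsph1*, *Hsp90aa1*, *Hsp90ab1*, *Dnaja1*, *Dnajb1* and the regulator *Hsf1*. Each symbol matched 1 row, so that the 10 genes are 10 of 32390 rows, and all 10 passed the filter on low counts that left 12725 rows for testing. Of these, *Hspa1a*, *Hspa1b*, *Hsp90aa1*, *Hsph1* and *Dnajb1* are taken here as the stress-inducible forms, and *Hspa8*, *Hspa4*, *Hsp90ab1* and *Dnaja1* as the constitutive forms.

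Bulk RNA-seq of gastrocnemius, a calf muscle made mostly of fast fibers, compared 4 control mice (genotype Nox4 fl/fl) with 4 NOX4-deficient mice (MckCre:Nox4 fl/fl, labelled KO). All mice were male, 21 months old and on a C57BL/6 background, and all carried the loxP-flanked *Nox4* alleles. NOX4 is an NADPH oxidase that makes hydrogen peroxide. The *Mck* promoter drives Cre in striated muscle, including the heart, and the whole muscle was homogenised, so that fibroblasts, vessels and other cells in it kept an intact *Nox4*. As the controls carried no Cre, an effect of Cre and an effect of the deletion cannot be told apart. In such bulk tissue, fewer cells of a type and less RNA per cell cannot be told apart either.

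HSP70 proteins bind exposed hydrophobic stretches of unfolded or newly made proteins and release them in cycles of ATP hydrolysis. J-domain proteins (HSP40) deliver the client and trigger hydrolysis, and HSP110 proteins and other exchange factors renew the ATP. HSP90 takes over clients such as kinases and steroid receptors for their last folding steps. The factor HSF1 is held inactive by these same chaperones and, once clients occupy them, forms trimers that bind heat shock elements, inverted repeats of GAA, in chaperone promoters. Working muscle makes heavy use of this system because contraction heats and strains the filament proteins.

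Promoters of *Hspa1a*, *Hspa1b*, *Hsph1* and *Dnaja1* are shown because a window of each carries an HSF1-type repeat. The sequences are RefSeq windows of mouse build GRCm38.p6, 250 bases before to 50 bases after an annotated start, and positions are counted from that start. Windows were at hand for 6 of the 10 genes. Capitals mark the inverted repeat GAANNTTC or TTCNNGAA, in which N is any base and which was searched on both strands. The *Hspa1a* line is chr17:34972157-34972296 and the *Hspa1b* line chr17:34959239-34959378, both on the minus strand and covering the 140 bases before the start.
Hspa1a: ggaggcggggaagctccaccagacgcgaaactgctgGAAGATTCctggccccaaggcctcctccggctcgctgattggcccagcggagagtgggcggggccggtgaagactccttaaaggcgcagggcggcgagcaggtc
Hspa1b: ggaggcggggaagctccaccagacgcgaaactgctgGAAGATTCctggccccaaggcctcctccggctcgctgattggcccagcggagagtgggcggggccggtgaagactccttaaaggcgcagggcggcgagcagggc
The paired genes share these promoters almost letter for letter. The 140 bases differed at 1 position (99.3% identity), and the 250 bases before the start at 3 (98.8%). In both, the repeat began at position -104, with an inverted CCAAT box, ATTGG, at -67.

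In *Hsph1*, 80 bases before the more downstream of the annotated starts (chr5:149636316-149636395, minus strand) held the repeat at -54, and a stretch just after that start (chr5:149636281-149636305, minus strand) held a run of 3 alternating units at position 16. A distal window of *Dnaja1* (chr4:40722328-40722367, plus strand, 140 to 101 bases before the start), 1 of 3 windows of that gene, held the repeat at -124.
Hsph1 before the start: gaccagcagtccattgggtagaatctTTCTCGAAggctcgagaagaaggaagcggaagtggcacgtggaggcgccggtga
Hsph1 after the start: gcagaTTCTGGAAAGTTCtcctcag
Dnaja1: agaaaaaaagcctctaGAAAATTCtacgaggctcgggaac
The short repeat occurs in 15.1% of the 32851 windows of all genes, CCAAT on either strand in 37.4%, and the run of 3 units (the short repeat with a further inverted unit after the same spacing) in 0.603%. No window of *Dnajb1* or *Hspa4* held the short repeat. A match describes the letters only, and the build of these windows differs from the GRCm39 build of the counts.

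The libraries held 16350548 to 19804661 counts. *Nox4*, the deleted gene, was counted 85, 48, 35 and 70 times in controls and 29, 43, 42 and 37 times in the NOX4-deficient libraries. The log2 fold change was -0.65 (SE 0.29) and the Benjamini-Hochberg adjusted p by edgeR's quasi-likelihood test was 0.207. Without control replicate 1 they were -0.36 and 0.489. Of the NOX4-deficient libraries, 3 lay above the lowest control, so that the whole-gene count did not separate the genotypes. Summed CPM of fast-fiber markers, 122041 to 146367 in controls and 130490 to 149258 in NOX4-deficient muscle, lay far above that of slow-fiber markers (334 to 726 and 429 to 1281), as the tissue label says. All 9 slow-fiber markers had positive log2 fold changes (median 0.62), with 0 called by edgeR or DESeq2 and 0 at an unadjusted p under 0.05. Of the 5 adipocyte markers 4 were positive (median 0.87). Among markers of other cells, the range of summed CPM of hemoglobin genes and *Alas2* was 47.6 to 52.7 in controls and 72.3 to 159 in NOX4-deficient muscle. Of the 5 blood genes, 3 were matched and 2 of them were called higher. For leukocyte markers the ranges were 28.3 to 69.7 and 17.5 to 37.2 (0 of 7 tested called by either tool), for endothelial markers 188 to 228 and 206 to 226, for fibroblast markers 337 to 580 and 307 to 517, and for adipocyte markers 14.3 to 78.5 and 19.7 to 73.3 (0 of 5 called in each by edgeR and by DESeq2). At an unadjusted p under 0.05, 2 leukocyte markers were lower and 1 fibroblast marker higher. Immediate early genes, which rise within minutes of stress or tissue handling, summed to 139 to 201 and 76.4 to 183 CPM. By edgeR 1 of 7 was called, the lower *Atf3* (log2 fold change -1.36, adjusted p = 0.0175), and DESeq2 called 2 lower. At an unadjusted p under 0.05 by edgeR 2 were lower, *Atf3* and *Jun* (log2 fold change -0.51, adjusted p = 0.0744), and 0 higher. The part of these differences in the chaperone results was not tested.

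Inducible HSP70, HSP90 and HSP110 genes were lower in NOX4-deficient muscle, while *Dnajb1* and the constitutive forms did not pass both thresholds. A gene was called when its adjusted p was under 0.05 and its log2 fold change over 0.5 in size. By this rule 4 of the 10 genes were lower (*Hspa1a*, *Hspa1b*, *Hsp90aa1* and *Hsph1*) and 0 were higher, while 3.48% of all rows tested were called lower, 2.68% higher and 6.16% in either direction. DESeq2, run on 20675 rows, also called 4 lower and 0 higher, where it called 1015 rows in all, 577 of them lower. At an unadjusted p under 0.05 by edgeR, 8 were lower and 0 higher, beside 12.5% and 10.7% of all rows. All 10 fold changes were negative, with a median of -0.45 against 0.01 over all rows, and in 8 of 10 every NOX4-deficient library lay below every control, as in 8.97% of all rows. Without the minimum fold change 7 of 10 passed, beside 4.62% of all rows lower and 7.75% in either direction at that threshold. That count was 4 when control replicate 1, control replicate 2 or NOX4-deficient replicate 3 was left out, the genes lost being *Hspa8*, *Hspa4* and *Dnaja1*. It was 5 without control replicate 3 or 4 or NOX4-deficient replicate 1 or 4, and 7 without NOX4-deficient replicate 2. With scaling by library size only it was 6, and by DESeq2 it was 8. The plot of levels shows each gene in each mouse.

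**Figure D1:**
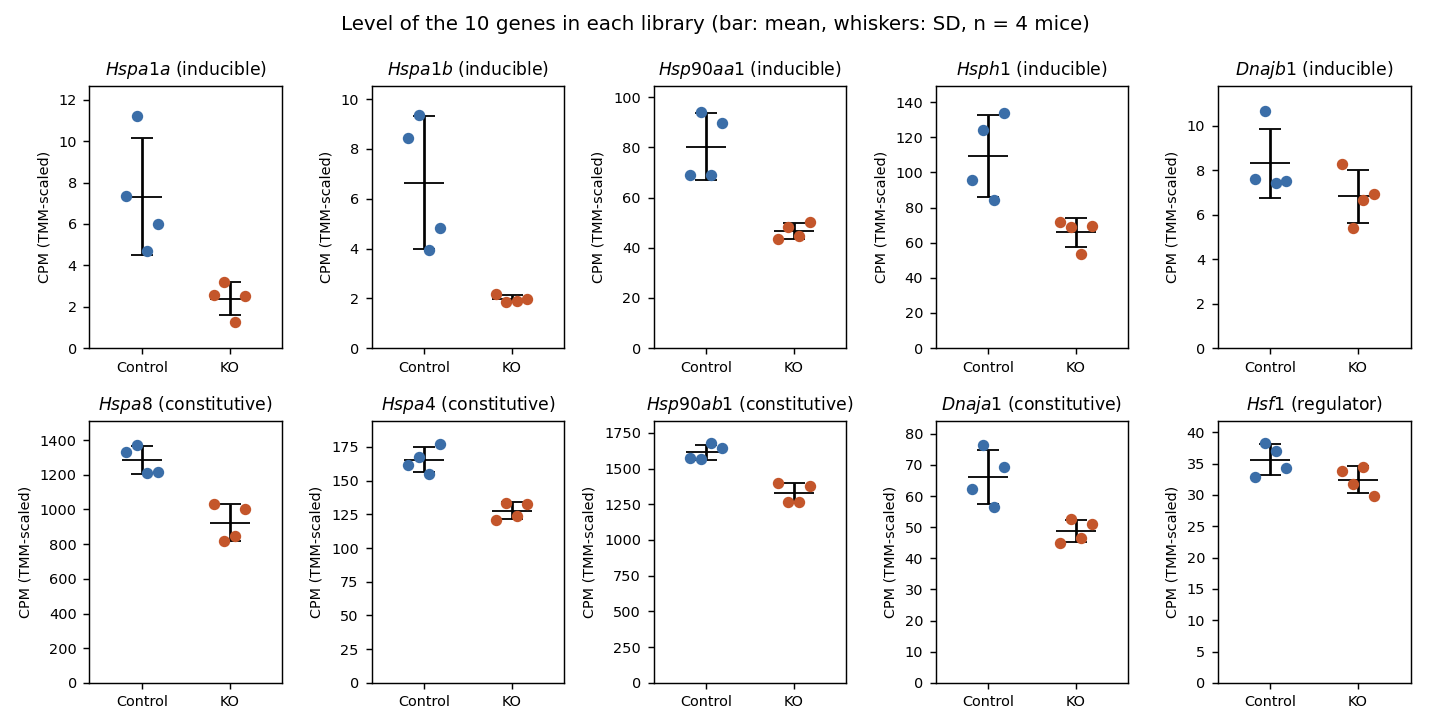
Level of the 10 genes in CPM (counts scaled by TMM library size, linear axes from 0), by genotype. Each point is 1 mouse, the horizontal bar is the mean and the whiskers are the SD (n = 4). In 8 panels the NOX4-deficient points all lie below the control points, and in the *Dnajb1* and *Hsf1* panels they overlap.

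The inducible HSP70 genes showed the widest gap. *Hspa1a*, which encodes HSP72, the HSP70 form made on stress, stood at 7.37, 11.2, 4.71 and 5.98 CPM in controls and 2.59, 3.19, 1.26 and 2.52 CPM in NOX4-deficient muscle. The genotypes did not overlap, and control replicate 2 was the highest library. Its log2 fold change was -1.61 (SE 0.31, adjusted p = 0.0097 by edgeR's quasi-likelihood test). These levels rest on few reads, 88 to 218 counts per control library and 24 to 63 per NOX4-deficient library.

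*Hspa1b*, the neighboring copy that encodes nearly the same protein, stood at 8.45, 9.37, 3.96 and 4.84 CPM in controls. In NOX4-deficient muscle it stood at 2.17, 1.87, 1.89 and 1.99 CPM. The controls fell into higher replicates 1 and 2 and lower replicates 3 and 4, whereas the NOX4-deficient libraries lay close together. The coefficient of variation was 39.9% in controls and 6.79% in NOX4-deficient mice. *Hspa1b* fell by 1.75 on the log2 scale (SE 0.28, adjusted p = 0.0033, edgeR), and without control replicate 2 the fold changes were -1.33 for *Hspa1a* and -1.53 for *Hspa1b*, both still called.

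Reads of these paired copies are hard to assign. Of all stretches of 150 bases in their annotated transcripts, 46% in *Hspa1a* and 40.5% in *Hspa1b* occur in transcripts of other genes, mostly in the partner, so that the split between both rows depends on how the authors' counting treated such reads. Their sum does not depend on that split. It was 15.8, 20.6, 8.67 and 10.8 CPM in controls and 4.75, 5.06, 3.15 and 4.51 CPM in NOX4-deficient muscle. The lowest control exceeded the highest NOX4-deficient library, and the sum was at 0.313 of the control level (log2 fold change -1.68, SE 0.26, adjusted p = 0.0033 by edgeR).

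*Hsp90aa1*, the inducible cytosolic HSP90 (HSP90α), stood at 68.8, 94.1, 68.9 and 89.6 CPM in controls and 43.6, 48.4, 44.5 and 50.1 CPM in NOX4-deficient muscle. Control replicates 2 and 4 were high, and the genotypes did not overlap. The log2 fold change was -0.78 (SE 0.12, adjusted p = 0.0033, edgeR). Of its 150-base stretches, 36.2% occur in other transcripts, most of them in the gene model *Gm12346*.

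*Hsph1* encodes HSP105, an HSP110 protein that exchanges the nucleotide of HSP70 and holds unfolded chains. It stood at 95.8, 124, 84.2 and 134 CPM in controls and 71.6, 69.1, 53.3 and 69.5 CPM in NOX4-deficient muscle. Replicate 3 was the lowest mouse in both genotypes, and the groups did not overlap. *Hsph1* fell by 0.73 on the log2 scale (SE 0.15, adjusted p = 0.0142, edgeR).

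*Dnajb1*, the HSP40 that pairs with HSP70 in stressed cells, did not pass the test. Its level was 7.61, 10.7, 7.44 and 7.54 CPM in controls and 8.3, 5.41, 6.68 and 6.92 CPM in NOX4-deficient muscle. NOX4-deficient replicate 1 exceeded 3 of the 4 controls. The log2 fold change was -0.29 (SE 0.18, adjusted p = 0.362, edgeR).

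**Figure D2:**
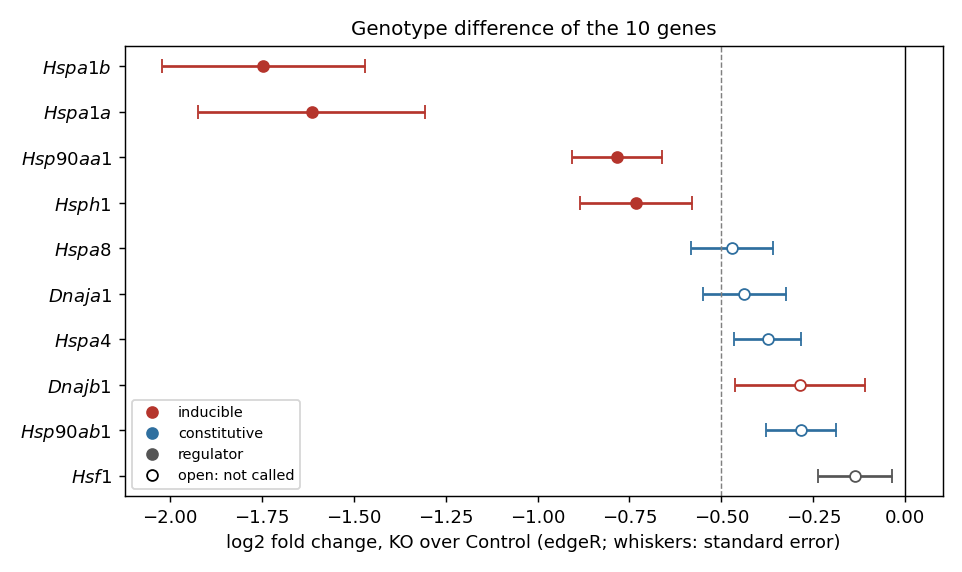
Log2 fold change of each gene, NOX4-deficient over control, with its standard error as whiskers. Filled points passed both thresholds, open points did not, and the dashed line marks the minimum fold change. The 4 called genes are all inducible forms, between -1.75 and -0.73, and *Dnajb1* lies among the constitutive forms.

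The constitutive forms had log2 fold changes between -0.47 and -0.28, none past the minimum size. *Hspa8* encodes HSC70, the housekeeping HSP70 of the cytosol, which also uncoats clathrin vesicles and feeds chaperone-mediated autophagy. It stood at 1332, 1371, 1210 and 1218 CPM in controls and 1030, 818, 848 and 1004 CPM in NOX4-deficient muscle, with no overlap. The log2 fold change of -0.47 (SE 0.11) had an adjusted p of 0.0242 by edgeR but was under the minimum size. Of its 150-base stretches, 56% occur in other transcripts, most of them in the gene model *Gm26825*.

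*Hspa4*, an HSP110 relative that serves as exchange factor for HSP70, had the lowest coefficient of variation of the 10 genes in NOX4-deficient mice, 4.9%. Its level was 162, 167, 155 and 177 CPM in controls and 121, 133, 124 and 133 CPM in NOX4-deficient muscle. Every NOX4-deficient library was below every control. The log2 fold change was -0.37 (SE 0.09, adjusted p = 0.0262, edgeR).

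*Dnaja1*, a farnesylated J-domain partner of HSC70, stood at 62.3, 76.3, 56.5 and 69.2 CPM in controls and 45.1, 52.7, 46.5 and 50.9 CPM in NOX4-deficient muscle. The groups were apart, though the lowest control and the highest NOX4-deficient library lay close to each other. Its log2 fold change was -0.44 (SE 0.11, adjusted p = 0.0346, edgeR).

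*Hsp90ab1*, the constitutive HSP90 (HSP90β), stood at 1573, 1566, 1676 and 1641 CPM in controls and 1397, 1268, 1266 and 1375 CPM in NOX4-deficient muscle. The groups did not overlap, but the test did not pass (log2 fold change -0.28, SE 0.1, adjusted p = 0.0939 by edgeR; 0.00568 by DESeq2). Over the 4 constitutive genes the median was -0.41, with 0 of 4 called by edgeR or DESeq2. At an unadjusted p under 0.05 by edgeR 4 of 4 were lower, beside 12.5% of all rows. Over the 5 inducible genes the median was -0.78, with 4 of 5 called lower by edgeR, beside 3.48% of all rows.

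*Hsf1*, the regulator, differed little. It stood at 32.8, 38.3, 37.1 and 34.3 CPM in controls and 33.8, 31.7, 34.5 and 29.8 CPM in NOX4-deficient muscle, and the groups overlapped. The log2 fold change was -0.14 (SE 0.1, adjusted p = 0.456, edgeR). HSF1 is governed mainly at the protein level, by trimerisation, phosphorylation and acetylation, and mRNA counts do not measure its activity.

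Levels can be set beside each other only per length, here as CPM per kilobase of annotated exons. In controls *Hsp90ab1* was at 640 ± 21.2 and *Hspa8* at 536 ± 33.8 CPM per kilobase (SD, n = 4), far above the rest. Next came *Hspa4* (35.8 ± 2.01), *Hsph1* (25.9 ± 5.54) and *Hsp90aa1* (23.8 ± 3.97), of which the last pair did not differ beyond their SDs. *Hsf1* (15.8 ± 1.1) and *Dnaja1* (11.4 ± 1.49) followed.

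The lowest 3 were *Dnajb1* (2.59 ± 0.488), *Hspa1a* (2.47 ± 0.95) and *Hspa1b* (2.37 ± 0.947), and they overlapped within their SDs in controls. In NOX4-deficient muscle these 3 no longer lay together, with *Dnajb1* at 2.13 ± 0.37 CPM per kilobase and *Hspa1a* and *Hspa1b* at 0.805 ± 0.273 and 0.707 ± 0.048. *Hsf1* (14.4 ± 0.938) then lay between *Hsph1* (15.6 ± 2) and *Hsp90aa1* (13.8 ± 0.921), within their SDs. Levels of genes that share sequence with other transcripts may be counted low.

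To compare inducible with constitutive forms directly, the ratio of their CPM was taken within each library for 4 pairs and tested on the log2 scale. A pseudocount of 0.5 CPM was added to both sides of each ratio. The percents below include it, which raises them most where the inducible level is low. An exact two-sided permutation test of 4 against 4 mice cannot give a p under 0.0286. With the pseudocount, *Hspa1a* and *Hspa1b* together were at 1.23, 1.54, 0.757 and 0.929% of *Hspa8* in controls and at 0.51, 0.679, 0.431 and 0.499% in NOX4-deficient muscle. The groups did not overlap, and the ratio was at 0.487 of the control ratio (log2 difference -1.04, exact permutation p = 0.0286, adjusted 0.0571).

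With the pseudocount, *Hsp90aa1* was at 4.4, 6.04, 4.14 and 5.49% of *Hsp90ab1* in controls and at 3.16, 3.86, 3.56 and 3.68% in NOX4-deficient muscle. Again the groups were apart, with a ratio at 0.717 of the control ratio (log2 difference -0.48, exact permutation p = 0.0286, adjusted 0.0571). After adjustment over the 4 pairs neither of these ratios passed the threshold of 0.05.

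For HSP110, with the pseudocount, *Hsph1* was at 59.4, 74.1, 54.4 and 75.8% of *Hspa4* in controls and at 59.5, 52.1, 43.3 and 52.6% in NOX4-deficient muscle. NOX4-deficient replicate 1 reached into the control range (log2 difference -0.34, exact permutation p = 0.0857, adjusted 0.114). For HSP40, with the pseudocount, *Dnajb1* was at 12.9, 14.5, 13.9 and 11.5% of *Dnaja1* in controls and at 19.3, 11.1, 15.3 and 14.4% in NOX4-deficient muscle. Here the groups overlapped and the difference was positive (0.16, exact permutation p = 0.429, adjusted 0.429).

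**Figure D3:**
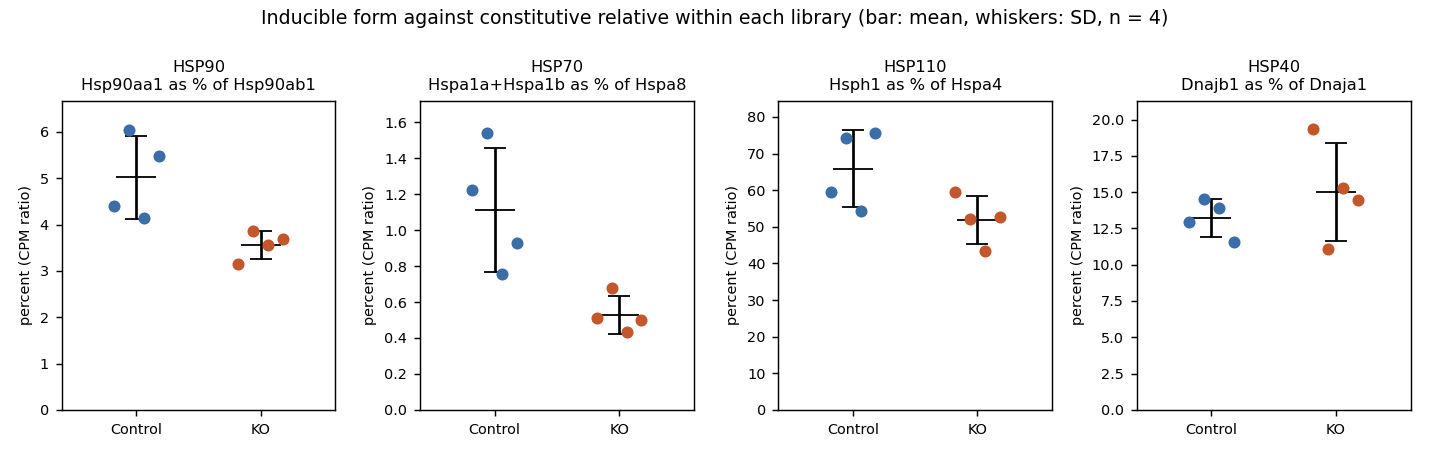
Inducible form as a percent of its constitutive relative, from CPM with a pseudocount of 0.5 and not corrected for length, within each library (points), with mean and SD (n = 4, linear axes from 0). The genotypes are apart in the HSP90 and HSP70 panels and overlap in the HSP110 and HSP40 panels.

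Inducible and constitutive forms of each family were also summed. *Hspa8* with *Hspa1a* and *Hspa1b* summed to 1297 ± 86 CPM in controls and 929 ± 108 in NOX4-deficient muscle, a difference of -28.3%. The inducible share of that sum was 1.06 ± 0.338% and 0.473 ± 0.102%. Both cytosolic HSP90 genes summed to 1694 ± 50.9 and 1373 ± 69.2 CPM (-19%), *Hspa4* with *Hsph1* to 275 ± 32.4 and 193 ± 11.9 CPM (-29.6%), and *Dnaja1* with *Dnajb1* to 74.4 ± 9.9 and 55.6 ± 2.72 CPM (-25.2%). The inducible share was 4.75 ± 0.814% and 3.41 ± 0.277% for HSP90, 39.5 ± 3.92% and 34 ± 2.93% for HSP110, and 11.2 ± 1.04% and 12.4 ± 2.56% for HSP40. These sums and shares were not tested.

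Mice of 1 genotype differed in the machinery as well. In controls, replicate 2 held the highest level in 7 of 10 genes and replicate 3 the lowest in 7 of 10, and the mean deviations from the genotype mean were 0.24 and -0.21 on the log2 scale. In NOX4-deficient muscle the mean deviations ran from -0.13 in replicate 3 to 0.07 in replicate 1. With the genotype means removed, *Hsp90aa1* and *Dnaja1* moved together over the 8 libraries (Pearson r = 0.919), as did *Hsp90aa1* with *Hsph1* (0.807) and *Hspa4* with *Dnaja1* (0.807). Of the 45 pairs of genes, 31 had a positive r, with a median of 0.27 and a range from -0.49 to 0.92. The libraries share their scaling, and these values are a description.

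**Figure D4:**
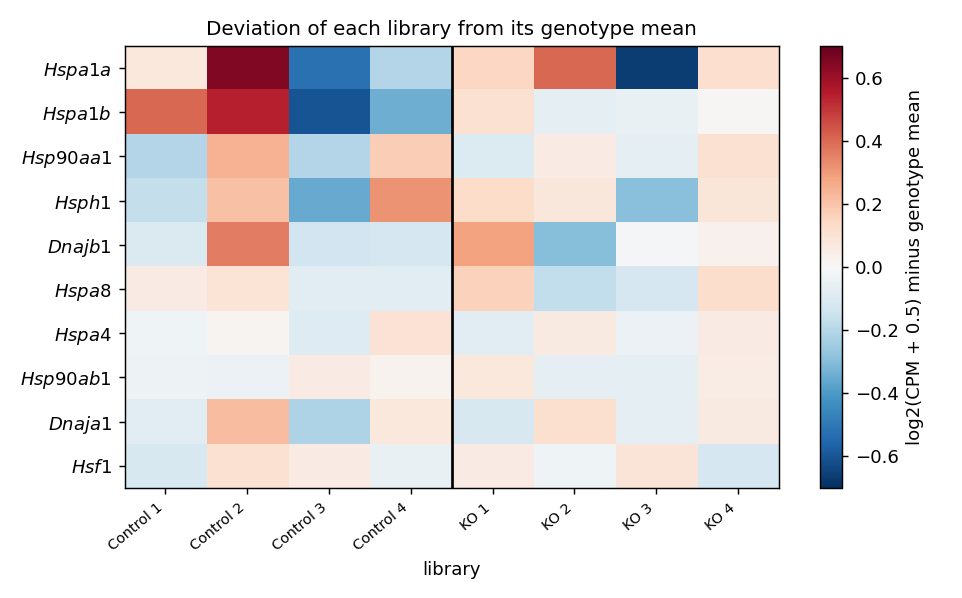
Deviation of each library from the mean of its genotype, as log2(CPM + 0.5), for the 10 genes (rows) and 8 libraries (columns). Control replicate 2 is red and control replicate 3 blue in most genes, and *Hspa1a* in NOX4-deficient replicate 3 is the deepest blue.

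Around the 10 genes, 5 lists of cofactors, relatives and regulators were counted, and edgeR and DESeq2 each called 0 of their genes higher. Over all rows tested, edgeR called 3.48% lower and 2.68% higher. At an unadjusted p under 0.05 by edgeR, 12.5% of all rows were lower and 10.7% higher. At that threshold 6 HSP70 cofactors, 5 HSP90 cofactors, 4 other HSP70 and HSP90 proteins, 2 genes of the HSF list and 7 other HSF1 targets were lower. In the other direction, 1 gene was higher among the other HSP70 and HSP90 proteins (*Hspa2*, log2 fold change 0.41) and 1 among the HSF1 regulators (*Fbxw7*, 0.31). Of 18 HSP70 cofactors (J-domain proteins, nucleotide exchange factors and CHIP-type partners) 3 were called lower (16.7%) and 0 higher, with a median log2 fold change of -0.18. *Bag3*, an exchange factor that couples HSP70 to selective autophagy of filament proteins, went from 215 ± 13.7 to 131 ± 16.1 CPM (log2 fold change -0.71, SE 0.11, adjusted p = 0.00283, edgeR). The J-domain genes *Dnajb4* (97.7 ± 11 and 63.4 ± 14 CPM, log2 fold change -0.63, adjusted p = 0.0231) and *Dnaja4* (62 ± 8.01 and 41.7 ± 7.38 CPM, log2 fold change -0.57, adjusted p = 0.0291) were the others. Both lost their call in edgeR when control replicate 1 or 2 or NOX4-deficient replicate 1 or 3 was left out (*Dnajb4* up to an adjusted p of 0.0691, *Dnaja4* up to 0.0821), and *Dnaja4* also without control replicate 3. The J-domain gene *Dnajb2* was at -0.38 and not called.

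Of 18 HSP90 cofactors 2 were called lower (11.1%, beside 3.48% of all rows) and 0 higher, with a median of -0.12. *Ptges3* encodes p23, which stabilises the closed ATP-bound HSP90, and went from 103 ± 9.49 to 64.4 ± 6.1 CPM (log2 fold change -0.68, SE 0.11, adjusted p = 0.00312, edgeR). *Fkbp5* encodes FKBP51, a peptidyl-prolyl isomerase in HSP90 complexes of steroid receptors and itself a glucocorticoid-induced gene, and stood at 131 ± 48 and 40.3 ± 18.2 CPM (-1.71, SE 0.34, adjusted p = 0.019). Control replicate 4 was far above the other controls for *Fkbp5* (203 CPM). The call was lost without NOX4-deficient replicate 1 (adjusted p = 0.0589) or 2 (0.0508) and with no filter on low counts (0.0827). The kinase cochaperone *Cdc37* (0.06) and the myosin cochaperone *Unc45b* (-0.13) were not called.

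Among 11 HSP70 and HSP90 genes outside the 10, 1 was called lower (9.09%, beside 3.48% of all rows) and 0 higher, with a median of -0.12. This was *Hyou1*, an HSP110 relative of the endoplasmic reticulum (32.2 ± 1.4 and 22.1 ± 0.904 CPM, log2 fold change -0.54, SE 0.1, adjusted p = 0.00652, edgeR). Its partner *Hspa5* (BiP) went from 260 ± 6.67 to 189 ± 4.08 CPM (-0.46, adjusted p = 0.00772), under the minimum size, and the reticulum HSP90 *Hsp90b1* stood at -0.37 (adjusted p = 0.032). The mitochondrial relatives *Hspa9* (-0.27, adjusted p = 0.103) and *Trap1* (-0.12, adjusted p = 0.481) did not pass by edgeR. By DESeq2 the adjusted p of *Hspa9* was 0.019, with a fold change under the minimum size.

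Of the 12 genes of the HSF family and its regulators, 9 passed the low-count filter. Of these 1 was called lower (11.1%, beside 3.48% of all rows) and 0 higher (median -0.15). *Hsf2*, an HSF that can form mixed trimers with HSF1, went from 45.5 ± 7.25 to 27.7 ± 2.87 CPM (log2 fold change -0.71, SE 0.13, adjusted p = 0.007, edgeR). Of 15 other chaperone genes known as HSF1 targets, 14 were negative, beside 6065 of all 12725 rows, but 1 was called lower (6.67%, beside 3.48% of all rows). It was *Hspb1*, the small heat shock protein HSP27 (186 ± 30 and 80.2 ± 15.8 CPM, log2 fold change -1.21, SE 0.15, adjusted p = 9.78e-04, edgeR). The median of that list was -0.21.

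**Figure D5:**
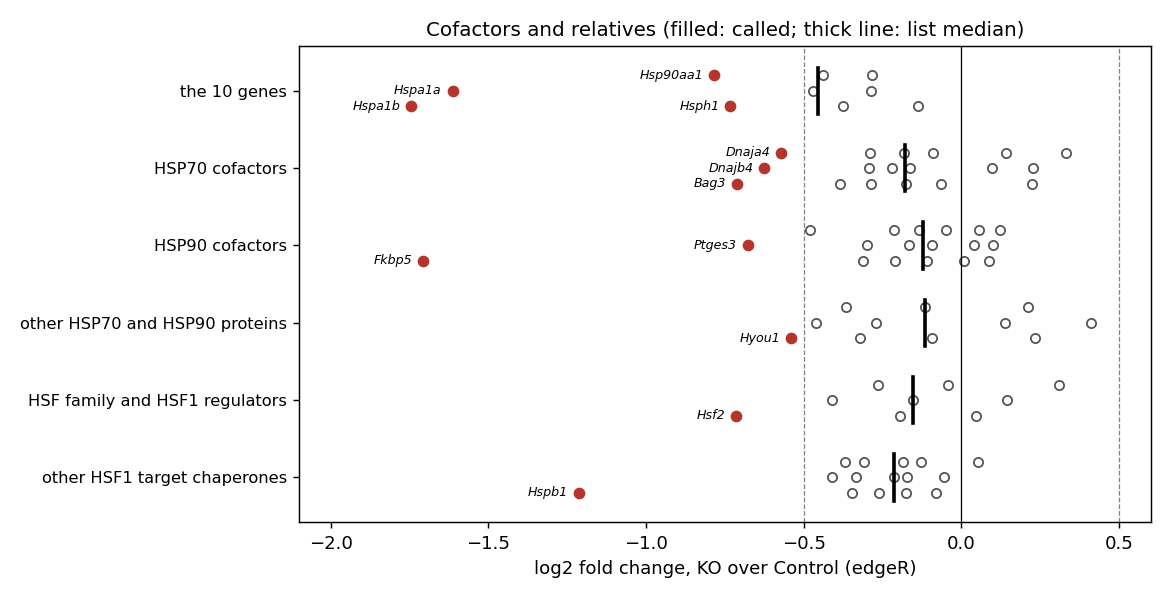
Log2 fold change of every tested gene in the 10-gene set and in 5 lists around it. Filled points were called and are named, open points were not, and the thick line is the median. Every called gene lies left of zero, and the medians run from -0.45 in the 10 genes to -0.12 in the HSP90 cofactors and in the other HSP70 and HSP90 proteins.

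The rows most like the machinery were found from the mean z-score of the 10 genes over the 8 libraries, both genotypes together, among rows of at least 10 CPM. They were *Rnf185* (Pearson r = 0.984), a ubiquitin ligase of the endoplasmic reticulum, *Ppp2ca* (0.973), the catalytic subunit of protein phosphatase 2A, *Slc38a3* (0.973), a glutamine transporter, *S1pr1* (0.969), a sphingosine 1-phosphate receptor, and *Plin5* (0.962), a lipid droplet protein. Of these *Ppp2ca* (log2 fold change -0.54, adjusted p = 0.00496) and *Plin5* (-1.74, adjusted p = 7.33e-04) were called lower by edgeR. The likeness includes the genotype difference that the rows share, and it is a description over 8 libraries.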

How the data were processed

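RNA-seq reads from 8 gastrocnemius libraries (poly(A), unstranded, paired-end) were processed by the authors with the nf-core RNA-seq pipeline, whose gene count matrix they used. The submitters' processing notes name STAR and the GRCm39 build, while the annotation release and the treatment of reads that match several genes are not given in the sources used here. The deposited table holds unnormalized read counts for each gene in each of the 8 mice, and 0 columns remained without a sample.

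Genotypes were compared with edgeR 4.0.16 in R 4.3.3 (TMM, filterByExpr, robust quasi-likelihood fit, genotype as the only term, all 8 libraries) and limma 3.58.1, with Benjamini-Hochberg adjustment over 12725 rows. Calls used the study's thresholds, 0.05 for the adjusted p and 0.5 for the size of the log2 fold change. The common dispersion corresponded to a coefficient of variation of 0.174. CPM is TMM-scaled, and errors are SDs over 4 mice. Depth was 16350548 to 19804661 counts. Paralog ratios used a pseudocount of 0.5 CPM and exact permutation tests. Exon lengths and shared 150-base stretches came from GENCODE vM21 (GRCm38), promoters from RefSeq. On simulated counts for this comparison, 74.6% of 197 genes changed by 1 log2 unit were recovered among 12577 rows, and 8.7% of calls were unchanged genes.

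The 10 genes and all lists were chosen with earlier results of these data known. Named genes are the 10, called genes of each list (up to 5 by p), the 5 rows most like them, *Hspa5*, *Hsp90b1*, *Hspa9*, *Trap1* and *Nox4*. *Atf3*, *Jun*, *Hspa2*, *Fbxw7*, *Dnajb2*, *Cdc37*, *Unc45b* and *Alas2* were added after their values were seen. Replicate numbers are shared between genotypes but correlated at 0.254, 0.166, 0.064 and 0.046, not all over 0.1, and were not taken as pairs. The sample titles and column names give no batch. Alternatives were other scalings, filters, a fit that was not robust, DESeq2 1.42.0, a replicate block, other pseudocounts and leaving out each library.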

Additional observations from a re-analysis of the deposited data

Results flagged for a closer look

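In 32 groups of 4 libraries the gap of the most distant mouse to its nearest neighbor was divided by the group's range, and 3 exceeded the Dixon 95% critical value for 4 samples. Chance gives about 1 in 20 groups, here 1.6. For *Hsph1* the NOX4-deficient replicate 3 was low (53.3 CPM, gap ratio 0.863). For *Dnajb1* control replicate 2 was high (10.7 CPM, gap ratio 0.946). For *Nox4* NOX4-deficient replicate 1 was low (1.75 CPM, gap ratio 0.918).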

How the results depend on the processing

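The number of called genes among the 10 was 4 and stayed at 4 under other scalings, filters, the fit that was not robust and DESeq2, and it was 7 without a minimum fold change. With each library left out in turn it ranged from 4 to 5, the added gene being *Hspa8* without NOX4-deficient replicate 1 (log2 fold change -0.52, adjusted p = 0.0303, edgeR). The summed *Hspa1a* and *Hspa1b* ranged from -1.83 to -1.43, and, likewise with 1 library left out, the log2 ratio differences from -0.57 to -0.39 (HSP90), -1.21 to -0.87 (HSP70), -0.43 to -0.26 (HSP110) and 0.03 to 0.3 (HSP40). With a pseudocount of 2 CPM the HSP70 difference was -0.8. Of 205 recomputed values of the 10 genes, their sum and ratios, 204 kept their direction and side of the threshold, 1 passed it newly and 0 reversed. For genes and the sum the side needs both thresholds, so that an adjusted p lost or gained under the minimum fold change was not counted. For ratios it was an adjusted p under 0.05. The HSP90 and HSP70 ratios, at the smallest exact permutation p of 0.0286, were adjusted to 0.0571, so that an unchanged side says little there. Of 255 values for 17 other named genes (*Nox4* apart), 12 lost their call (5 for *Dnaja4*, 4 for *Dnajb4*, 3 for *Fkbp5*), 2 passed newly (*Slc38a3* without control replicate 1 or 4) and 0 reversed. *Nox4* was called in none of its 15 alternatives, which ranged from -0.82 to -0.36. The replicate number entered as a block left 4 genes called, and over all rows 933 were called against 784. Sign flips of 4 same-numbered differences cannot give an exact p under 0.125. Without control replicate 4, 499 rows were called. With 24 to 63 counts of *Hspa1a* per NOX4-deficient library, depth limits its precision.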
